A study of Mus musculus with 12 samples.

Results

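The genes described here are those that encode subunits of voltage-gated and potassium channels, as measured by RNA sequencing of mouse neural stem cells (NSCs). Members were chosen by gene symbol alone: potassium channel genes (Kcn followed by letters and a number), sodium channel alpha and beta subunits (Scn) and calcium channel alpha1, alpha2delta, beta and gamma subunits (Cacna, Cacnb and Cacng). This rule found 131 of the 45792 genes in the files. It left out *Scn2a1*, the older symbol under which the files list a neuronal sodium channel alpha subunit.

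Voltage-gated channels open when the membrane potential changes. Their pore subunits (alpha subunits) set which ion passes, and accessory subunits set how many channels reach the membrane and how fast they open. Inward rectifier and tandem-pore potassium channels need no depolarization, hold the resting potential and, in astrocytes and other glia, take up the potassium that active neurons release. Sodium and most calcium channels are known for action potentials and transmitter release in neurons, and precursor cells of the neonatal forebrain carry some of them before they differentiate.

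Forebrain NSCs came from pups aged 1 to 2 days and were cultured without serum, with EGF and FGF, to the second passage, and each pup's cells were grown separately. The 3 groups held 4 libraries each: wild type (WT), *Ncf1*-/- NSCs given vehicle (labelled as untreated), and *Ncf1*-/- NSCs given mouse recombinant Igfbp2 for 48 h, starting 48 h after plating. *Ncf1* encodes a subunit that the NADPH oxidase Nox2 needs to make reactive oxygen species, the deletion is present in all cells of the mouse, and Igfbp2 is a secreted protein that binds insulin-like growth factors. The labels give a dose of 100 ng/ml Igfbp2, whereas the study's methods name a lower one. The study's purpose in these libraries was to learn what loss of *Ncf1* changes in NSCs and what added Igfbp2 changes in cells without *Ncf1*.

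Expected counts summed to between 18201622 and 34086554 per library. *Ncf1* had 2 to 7 counts in WT and 1 to 4 in *Ncf1*-/- libraries, too few to check the genotype. Values of a gene are CPM, its counts relative to the library total after edgeR's TMM scaling between libraries, for replicates 1 to 4 of a group in that order, and levels of different genes are compared only as TPM, which takes gene length into account. Replicates are separate cultures and have no order.

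The cultures differed in more than the channels. The summed level of 11 oligodendrocyte lineage markers was 3216 to 11320 CPM in WT, 2180 to 2347 CPM in vehicle-treated and 2230 to 2320 CPM in Igfbp2-treated *Ncf1*-/- NSCs, and 9 of the 11 fell and 2 rose in vehicle-treated *Ncf1*-/- NSCs against WT. Of 8 astrocyte markers, 7 were lower in *Ncf1*-/- NSCs, with sums of 7234 to 12680 CPM in WT against 3169 to 3649 CPM. The 11 neuronal lineage markers summed to 674 to 1076 CPM in WT, 514 to 583 CPM in vehicle-treated and 471 to 504 CPM in Igfbp2-treated cultures. Neural stem cell markers (8 genes) summed to 2420, 2528, 7926 and 3702 CPM in the WT cultures and to 7468 to 8232 CPM in all *Ncf1*-/- cultures, although 3 of the 8 rose and 4 fell in vehicle-treated *Ncf1*-/- NSCs against WT. By the stem cell, oligodendrocyte and neuronal sums WT replicate 3 was the nearest of the WT cultures to the *Ncf1*-/- ones, whereas its astrocyte sum, 12680 CPM, was the highest of the 12 cultures. Microglial markers summed to at most 2.13 CPM. Vascular and mesenchymal markers (8 genes, 6 tested) summed to 14.0 to 30.3 CPM in WT, 9.89 to 12.7 CPM in vehicle-treated and 20.6 to 24.4 CPM in Igfbp2-treated cultures, with 2 of the 6 higher and 0 lower with Igfbp2 against vehicle (edgeR), and their part in the treatment differences was not tested. Y-linked genes summed to between 105 and 118 CPM in all vehicle-treated *Ncf1*-/- cultures and WT replicates 1 to 3, and to at most 9.18 CPM in all Igfbp2-treated cultures and WT replicate 4. Treatment and sex-linked expression therefore cannot be told apart in the *Ncf1*-/- cultures. In a bulk culture, fewer cells of a type and less RNA per cell cannot be told apart either.

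Of the 131 channel genes, 85 had enough counts to be tested and 46 did not, among them 4 with no count in any library (*Kcne3*, *Kcnj1*, *Kcnk16* and *Scn10a*). Tested genes numbered 27 of 40 voltage-gated potassium (Kv) alpha subunits, 7 of 11 Kv auxiliary subunits, 8 of 15 inward rectifiers, 7 of 14 tandem-pore channels and 9 of 12 calcium- or sodium-activated potassium channels. Among the others, 4 of 9 sodium channel alpha and 3 of 4 sodium channel beta subunits were tested. The calcium channel genes tested were 8 of 10 alpha1, 4 of 4 alpha2delta, 4 of 4 beta and 4 of 8 gamma subunits. Per length, *Kcnj10*, the inward rectifier of astrocytes and oligodendrocyte precursors, was the most abundant channel gene, with a mean level of 78.2 TPM over the 12 libraries. The next were *Cacng7* at 31.5 TPM, *Cacng5* at 18.6 TPM, *Kcnip3* at 18.5 TPM and *Cacng4* at 16.0 TPM. The sodium channel gene *Scn8a* was lower, at 4.91 TPM.

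To show what lies before the start sites of the genes on which the results turn, the 250 bases upstream of the RefSeq start (GRCm38.p6) are printed for 5 of them: *Kcnj10*, *Kcnip1* and *Kcnk2* for their size of change, and *Cacng5* and *Cacng7* as gamma subunits that changed in opposite directions. Capitals mark each GC box (GGGCGG) and each E-box (CANNTG), on either strand.
Kcnj10 (chr1:172340960-172341209, plus strand): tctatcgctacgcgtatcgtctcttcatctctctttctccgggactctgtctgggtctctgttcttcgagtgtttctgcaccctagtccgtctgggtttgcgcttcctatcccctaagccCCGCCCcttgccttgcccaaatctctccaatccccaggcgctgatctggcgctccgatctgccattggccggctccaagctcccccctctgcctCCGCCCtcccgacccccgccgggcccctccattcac
Kcnip1 (chr11:33993194-33993443, minus strand): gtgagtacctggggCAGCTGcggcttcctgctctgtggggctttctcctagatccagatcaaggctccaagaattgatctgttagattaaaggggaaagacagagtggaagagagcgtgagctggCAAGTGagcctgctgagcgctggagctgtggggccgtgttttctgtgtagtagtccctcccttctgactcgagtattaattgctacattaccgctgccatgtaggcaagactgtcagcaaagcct
Kcnk2 (chr1:189402274-189402523, minus strand): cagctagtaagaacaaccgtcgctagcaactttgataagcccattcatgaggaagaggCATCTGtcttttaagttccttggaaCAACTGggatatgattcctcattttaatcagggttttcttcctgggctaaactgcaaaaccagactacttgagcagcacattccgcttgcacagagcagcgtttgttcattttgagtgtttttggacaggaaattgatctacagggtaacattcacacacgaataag
Cacng5 (chr11:107915056-107915305, minus strand): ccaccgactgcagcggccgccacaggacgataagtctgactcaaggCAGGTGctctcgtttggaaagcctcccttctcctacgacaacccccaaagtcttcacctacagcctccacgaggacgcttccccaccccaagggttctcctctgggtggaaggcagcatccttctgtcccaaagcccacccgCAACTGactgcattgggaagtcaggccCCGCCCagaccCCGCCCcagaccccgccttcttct
Cacng7 (chr7:3332575-3332824, plus strand): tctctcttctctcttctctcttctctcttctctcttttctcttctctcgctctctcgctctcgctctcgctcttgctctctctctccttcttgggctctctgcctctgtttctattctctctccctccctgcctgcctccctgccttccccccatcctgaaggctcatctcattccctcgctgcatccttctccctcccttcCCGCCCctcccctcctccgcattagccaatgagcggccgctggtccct
The stretches before *Kcnj10* and *Cacng5* hold 2 GC boxes each and that before *Cacng7* holds 1, while those before *Kcnip1* and *Kcnk2* hold no GC box. E-boxes stand before *Kcnip1*, *Kcnk2* and *Cacng5*, 2 in each stretch. RefSeq lists several starts for *Kcnip1* (3), *Cacng5* (2) and *Kcnk2* (4), and gene counts do not show which one was used. Over the 96 channel genes in the promoter table, 44.8% held a GC box and 65.6% an E-box in this window, against 32.9% and 66.0% of all 27025 promoters. The sequence TATAAA stood in 3.12% of the channel gene windows and in 13.0% of all, and the median GC content was 58.8% against 52.0%. A match in these letters is a description and not a binding site.

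Loss of *Ncf1* changed channel genes in both directions. Against WT, vehicle-treated *Ncf1*-/- NSCs had 22 of 85 tested channel genes higher and 27 lower (edgeR's quasi-likelihood test, Benjamini-Hochberg adjusted p under 0.05). The share called, 57.6%, was close to the 57.2% called among all 15706 genes tested, of which 28.9% were higher and 28.2% lower. The median log2 fold change was −0.17 over the channel genes and 0.02 over all genes. Without TMM factors, on library totals alone, the counts were 29 higher and 24 lower, with a median over all genes of 0.19. Limma on log2(TPM + 1) kept 20 of the 22 rises and 20 of the 27 falls, and *Cacna1b*, *Cacna1e*, *Cacna1i*, *Cacna2d2*, *Cacnb1*, *Cacnb4* and *Scn8a* were the falls it did not call. The 4 cultures of one genotype lay entirely above or below those of the other for 23 genes that were higher and 24 that were lower in *Ncf1*-/- NSCs, where all genes tested gave 51.2% (26.1% higher and 25.0% lower). By class, 5 of 8 calcium channel alpha1 and 3 of 4 calcium channel beta subunits were lower and 0 higher, and Kv alpha subunits split into 7 higher and 6 lower. On library totals 4 alpha1 subunits were lower and 1 (*Cacna1g*) higher, and 2 beta subunits were lower, since *Cacna1b* (edgeR adjusted p = 0.28) and *Cacnb1* (edgeR adjusted p = 0.11) lost their calls. *Cacna1b*, an N-type pore at −0.41 in the fit of all libraries, also lost its call on leaving out any of 7 libraries (edgeR adjusted p of 0.051 to 0.12).

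**Figure D1:**
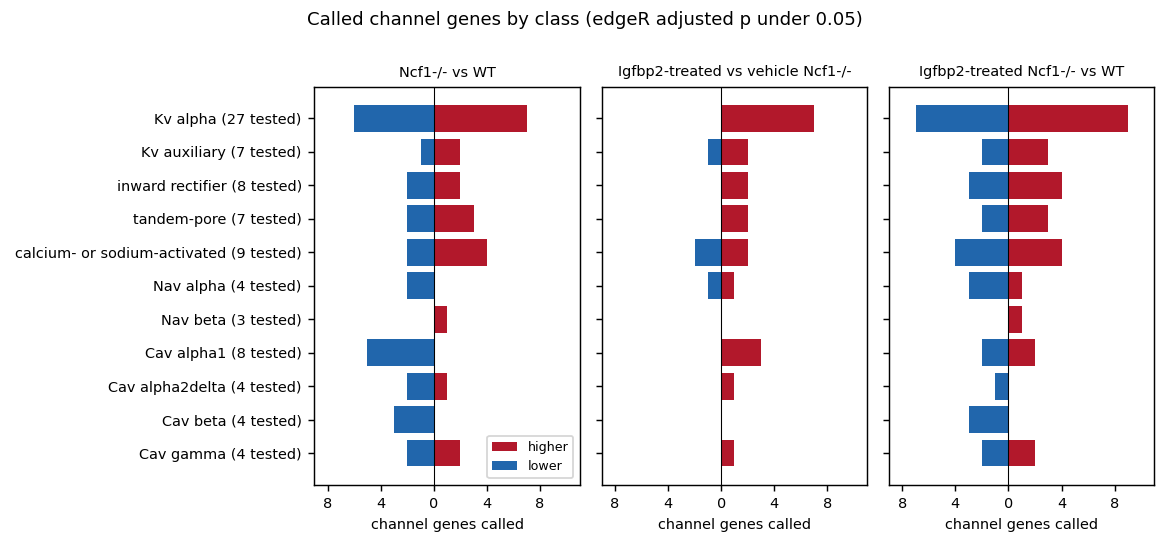
Number of channel genes called higher (red, to the right) or lower (blue, to the left) in each class, for the 3 comparisons. Calcium channel alpha1 subunits have 5 lower and none higher between *Ncf1*-/- and WT, and 3 higher and none lower between Igfbp2-treated and vehicle-treated *Ncf1*-/- NSCs.

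Igfbp2 treatment of *Ncf1*-/- NSCs gave 21 channel genes higher and 4 lower than vehicle, or 29.4% called against 25.0% of all genes tested (14.2% higher and 10.7% lower). The direction of the calls changed with the way libraries were scaled. Library totals gave 12 higher and 13 lower, limma on log2(TPM + 1) gave 3 higher and 12 lower, and DESeq2 gave 22 higher and 4 lower. The median over all genes moved as well, from 0.04 with TMM to −0.23 with library totals and −0.30 with limma on TPM. Shares of all genes called under these other settings were not counted, so their counts are no result about channel genes in particular. The 5 structural RNA genes took 56.0% to 60.3% of TPM in vehicle-treated and 62.1% to 72.3% in Igfbp2-treated cultures, and their part in this shift was not tested. Of the 21 genes called higher, *Kcng1*, *Kcnip1* and *Kcnj10* were also called higher under those 3 other settings. Limma on log2(TPM + 1) called no other gene of the 21 higher, and its values for those ran from −0.080 (*Cacna2d2*) to 0.30 (*Kcnj4*). Those lost with library totals included *Cacna2d2*, *Cacng8*, *Kcna2*, *Kcnd1*, *Kcnk1*, *Kcnk2* and *Kcnn1*. Treated and vehicle-treated cultures did not overlap for 26 channel genes that were higher and 6 that were lower with Igfbp2, against 34.1% of all genes tested. All of the 4 called lower (*Kcnab1*, *Kcnmb4*, *Kcnt1* and *Scn1a*) were called lower under the same 3 settings.

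Between Igfbp2-treated *Ncf1*-/- and WT NSCs, 29 channel genes were higher and 29 lower, or 68.2% called against 62.4% of all genes tested (31.6% higher and 30.8% lower). The groups did not overlap for 25 that were higher and 22 that were lower, against 54.3% of all genes tested. Each pair of groups shares libraries with the other comparisons, so the values of a gene in the 3 comparisons are given side by side and not as independent results.

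**Figure D2:**
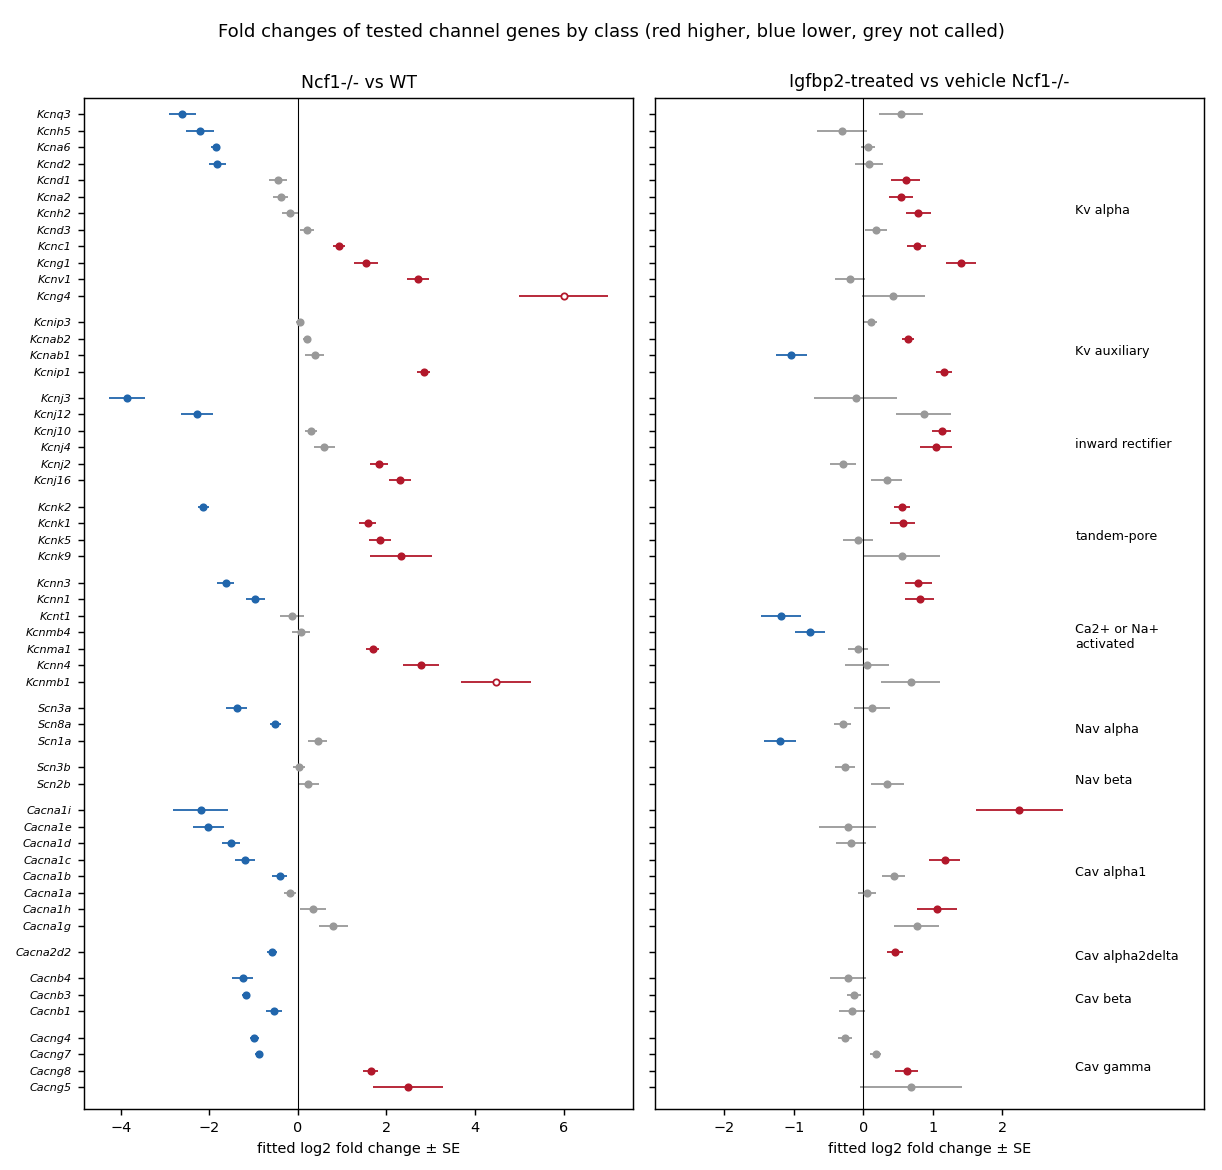
Fitted log2 fold change with its SE for the tested channel genes named in the text, by class, for *Ncf1*-/- against WT (left) and Igfbp2-treated against vehicle-treated *Ncf1*-/- NSCs (right), red for higher, blue for lower and grey for not called. Open symbols mark *Kcng4* and *Kcnmb1*, which were at or near 0 in WT, so that their fitted values are no measure of size.

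The most abundant inward rectifier, *Kcnj10*, rose with Igfbp2. It stood at 359.6, 413, 465 and 342.5 CPM in WT and at 418, 464, 452 and 594 CPM in vehicle-treated *Ncf1*-/- NSCs. In Igfbp2-treated NSCs it stood at 945, 1089, 1194 and 987 CPM. All 4 treated cultures were above all other cultures, while WT and vehicle-treated cultures overlapped. The log2 fold change was 1.13 ± 0.13 (SE) between treatments (edgeR adjusted p = 5.25e-04), 0.29 ± 0.13 between genotypes (edgeR adjusted p = 0.082) and 1.42 ± 0.14 between Igfbp2-treated *Ncf1*-/- and WT NSCs (edgeR adjusted p = 2.15e-06). The genotype difference was called with library totals (0.46, edgeR adjusted p = 0.019) and without WT replicate 3 (0.38, edgeR adjusted p = 0.026). DESeq2 (DESeq2 adjusted p = 0.063) and limma on log2(TPM + 1) (limma adjusted p = 0.25) did not call it. The rise with Igfbp2 stood beside astrocyte marker sums of 3543 to 4688 CPM in treated and 3169 to 3649 CPM in vehicle-treated cultures, both below WT. Of the 8 astrocyte markers, 0 were called higher and 0 lower between treatments (edgeR). Of the 11 oligodendrocyte lineage markers, 1 was called higher and 0 lower. Their sums were 2230 to 2320 CPM in treated and 2180 to 2347 CPM in vehicle-treated cultures.

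*Kcnj16*, whose product forms channels together with that of *Kcnj10*, differed more between genotypes than between treatments. It was at 4.78, 5.18, 9.38 and 4.12 CPM in WT, at 22.6, 27.3, 28.8 and 39.7 CPM in vehicle-treated and at 34.9, 36.9, 45.2 and 32.8 CPM in Igfbp2-treated *Ncf1*-/- NSCs. The WT cultures lay below all others, and the *Ncf1*-/- groups overlapped. The rise against WT was 2.30 ± 0.24 (edgeR adjusted p = 4.58e-06), and the difference between treatments was 0.34 ± 0.22 (edgeR adjusted p = 0.28). Its neighbour on chromosome 11, *Kcnj2*, a strong inward rectifier that begins 38195 bases further on, rose by 1.84 ± 0.20 on the log2 scale against WT (edgeR adjusted p = 7.33e-06), from 1.13 ± 0.20 CPM (SD, n = 4) to 4.05 ± 0.59 CPM.

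Other inward rectifiers fell. *Kcnj12* went from 2.72 ± 1.07 CPM (SD, n = 4) in WT to 0.55 ± 0.25 CPM without *Ncf1*, and its log2 fold change was −2.28 ± 0.37 (edgeR adjusted p = 1.64e-04). *Kcnj3*, which encodes a G protein-gated subunit of neurons and heart, was at 1.77, 1.57, 1.43 and 3.01 CPM in WT and at 0.13, 0.10, 0.04 and 0.22 CPM in vehicle-treated *Ncf1*-/- NSCs. The groups did not overlap, and its fall of 3.85 ± 0.40 on the log2 scale (edgeR adjusted p = 4.39e-06) was the largest among the tested channel genes, although 1621 of its 5215 exonic bases are shared with another annotated gene. *Kcnj4* rose with Igfbp2, by 1.05 ± 0.23 (edgeR adjusted p = 0.0072), from 2.28 ± 0.43 to 4.72 ± 0.84 CPM. *Kcnj8*, the rectifier of pericytes, had 13 counts over all libraries and was not tested.

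Among tandem-pore channels, *Kcnk2* and *Kcnk1* differed in opposite directions between genotypes. *Kcnk2*, which encodes a channel opened by membrane stretch and lipids, was at 84.5, 95.5, 93.9 and 66.6 CPM in WT and at 17.3, 19.3, 19.2 and 21.7 CPM in vehicle-treated *Ncf1*-/- NSCs. Igfbp2-treated cultures had 25.5, 27.7, 30.4 and 30.1 CPM. The 3 groups did not overlap, and the treated cultures lay between the others, much nearer to vehicle. The fall against WT was −2.13 ± 0.12 on the log2 scale (edgeR adjusted p = 4.20e-08) and the rise with Igfbp2 was 0.55 ± 0.12 (edgeR adjusted p = 0.0057). With library totals that rise was 0.28 and not called (edgeR adjusted p = 0.108), and 604 of 4943 exonic bases of *Kcnk2* overlap an antisense gene.

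*Kcnk1*, a weakly rectifying background channel, was at 3.502, 3.45, 5.34 and 7.46 CPM in WT and at 14.0, 14.5, 15.2 and 15.2 CPM in vehicle-treated *Ncf1*-/- NSCs, with no overlap. It rose by 1.58 ± 0.19 (edgeR adjusted p = 1.48e-05) against WT. With Igfbp2 it was at 21.8 ± 1.25 CPM (SD, n = 4), which was 0.57 ± 0.18 over vehicle on the log2 scale (edgeR adjusted p = 0.036), and this difference was 0.30 and not called with library totals, and not called on leaving out any 1 of the 8 *Ncf1*-/- libraries (edgeR adjusted p of 0.051 to 0.096). Acid-sensitive *Kcnk5* rose by 1.85 ± 0.24 against WT (edgeR adjusted p = 2.62e-05), from 0.70 ± 0.18 to 2.51 ± 0.46 CPM. *Kcnk9* was listed at 0 counts in WT replicates 1, 2 and 4 and at 0.52 CPM in WT replicate 3, against 0.61 to 1.16 CPM in vehicle-treated *Ncf1*-/- NSCs.

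**Figure D3:**
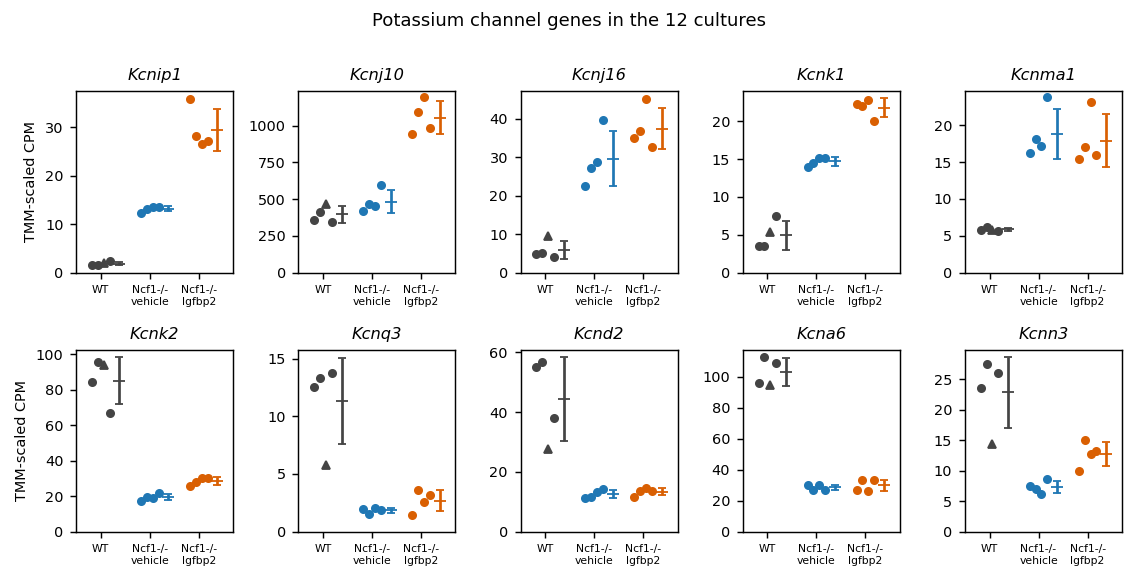
TMM-scaled CPM of 10 potassium channel genes, 1 point per culture with the mean and SD of the 4 cultures beside them, WT replicate 3 drawn as a triangle. *Kcnip1* stands at 1.46 to 2.28 CPM in WT, 12.4 to 13.5 CPM in vehicle-treated and 26.5 to 35.8 CPM in Igfbp2-treated *Ncf1*-/- NSCs, and *Kcnk2* runs the other way between genotypes.

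Of the Kv auxiliary subunits, *Kcnip1* differed most. It encodes a calcium-binding partner of Kv alpha subunits of the Kcnd family. It was at 1.64, 1.46, 1.92 and 2.28 CPM in WT, at 12.4, 13.2, 13.5 and 13.4 CPM in vehicle-treated and at 35.8, 28.1, 26.5 and 27.2 CPM in Igfbp2-treated *Ncf1*-/- NSCs. The 3 groups were apart from each other. The log2 fold change was 2.84 ± 0.14 between genotypes (edgeR adjusted p = 2.73e-08) and 1.16 ± 0.12 between treatments (edgeR adjusted p = 3.59e-04), and its level was 16.0-fold higher in Igfbp2-treated *Ncf1*-/- than in WT cultures (edgeR adjusted p = 1.72e-09). *Kcnmb1*, a subunit of calcium-activated channels known from smooth muscle, lies within the *Kcnip1* gene on the other strand and shares no exonic base with it. It had 0, 0, 1 and 0 counts in WT and 13, 6, 10 and 4 in vehicle-treated *Ncf1*-/- NSCs, at least 2.62-fold higher against a floor of 3 counts per library. The strand setting is not given in the sources used here, and reads from *Kcnip1* introns were not separated from those of *Kcnmb1*.

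*Kcnip3*, the most abundant Kv auxiliary subunit and also known as a transcriptional repressor, had means of 66.2 ± 8.71 CPM (SD, n = 4) in WT, 68.7 ± 4.39 CPM in vehicle-treated and 73.9 ± 2.61 CPM in Igfbp2-treated cultures, with log2 fold changes of 0.05 ± 0.09 and 0.11 ± 0.09. Cytoplasmic beta subunits went apart with Igfbp2. *Kcnab2* was at 12.1 to 13.7 CPM with vehicle and 18.02 to 21.8 CPM with Igfbp2 (log2 fold change 0.64 ± 0.08, edgeR adjusted p = 7.66e-04), and the difference was 0.37 with library totals (edgeR adjusted p = 0.0093) and 0.079 and not called with limma on log2(TPM + 1) (limma adjusted p = 0.77). *Kcnab1* was at 1.61, 1.31, 1.46 and 1.27 CPM with vehicle and at 0.61, 0.72, 0.57 and 0.83 CPM with Igfbp2. The groups did not overlap, and it fell by 1.04 ± 0.23 on the log2 scale (edgeR adjusted p = 0.0071).

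Of the 27 tested Kv alpha subunits, 7 were higher, 6 were lower and 14 were not called without *Ncf1* (48.1% called, against 57.2% of all genes tested). *Kcnq3*, a subunit of the M-current channel, which restrains repeated firing, was at 12.5, 13.3, 5.79 and 13.8 CPM in WT and at 1.92, 1.55, 2.03 and 1.87 CPM in vehicle-treated *Ncf1*-/- NSCs. The genotypes did not overlap, and the lowest WT culture was replicate 3. The log2 fold change was −2.61 ± 0.30 (edgeR adjusted p = 9.40e-06). With Igfbp2 it differed by 0.54 ± 0.31 (edgeR adjusted p = 0.22), not past the threshold.

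*Kcna6*, a Shaker-type subunit, was at 95.8, 113, 94.6 and 109 CPM in WT and at 29.8, 27.1, 30.2 and 26.8 CPM in vehicle-treated *Ncf1*-/- NSCs. Every WT culture was above every *Ncf1*-/- culture, and the fall was 1.86 ± 0.10 on the log2 scale (edgeR adjusted p = 3.81e-08). Of its 5945 exonic bases 2355 overlap an antisense gene, and whether the library kit kept the strand is not given in the sources used here. *Kcnd2*, the A-type channel that Kcnip proteins bind, fell by 1.82 ± 0.20 (edgeR adjusted p = 5.44e-06), from 55.1, 56.9, 27.6 and 38.0 CPM to between 11.2 and 14.1 CPM. The related *Kcnd3* did not pass between genotypes, with 84.2 ± 15.1 CPM in WT (SD, n = 4) and 97.1 ± 17.6 CPM in *Ncf1*-/- NSCs (0.20 ± 0.16, edgeR adjusted p = 0.29). *Kcnh5*, of the ether-a-go-go family, fell by 2.20 ± 0.32 (edgeR adjusted p = 6.46e-05).

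Other Kv alpha subunits rose. *Kcnc1*, known from fast-firing neurons, was at 74.3, 81.2, 74.2 and 70.7 CPM in WT, at 122, 143, 127 and 179 CPM in vehicle-treated and at 197, 255, 300.4 and 217.5 CPM in Igfbp2-treated *Ncf1*-/- NSCs. No culture of a group reached into another group. The rises were 0.93 ± 0.14 against WT (edgeR adjusted p = 1.02e-04) and 0.77 ± 0.14 with Igfbp2 (edgeR adjusted p = 0.0031), and the latter was 0.27 and not called on log2(TPM + 1) with limma (limma adjusted p = 0.33). Subunits of the Kcng, Kcnf and Kcnv families make no channel on their own and change the properties of other Kv channels. *Kcnv1* rose by 2.72 ± 0.25 against WT (edgeR adjusted p = 1.57e-06), from 0.32 to 0.72 CPM in WT to 3.22 to 3.73 CPM. *Kcng1* averaged 0.25 ± 0.07 CPM in WT (SD, n = 4), 0.77 ± 0.17 CPM in vehicle-treated and 2.06 ± 0.11 CPM in Igfbp2-treated cultures, with log2 fold changes of 1.54 ± 0.27 (edgeR adjusted p = 3.05e-04) and 1.41 ± 0.22 (edgeR adjusted p = 0.0015). *Kcng4* had 0 counts in each WT library and 5, 11, 13 and 4 counts in vehicle-treated *Ncf1*-/- libraries, at least 2.67-fold higher against the floor of 3 counts per library.

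*Kcna2*, of the Shaker type like *Kcna6*, did not pass between genotypes (−0.39 ± 0.17, edgeR adjusted p = 0.074). Its vehicle-treated cultures had 97.7, 120.4, 117 and 156.5 CPM and its Igfbp2-treated cultures 139, 175, 229.7 and 171 CPM. These ranges overlapped, the fold change was 0.54 ± 0.17 (edgeR adjusted p = 0.039), and the call was lost with library totals (edgeR adjusted p = 0.26) and on leaving out any of 8 libraries, and it was 0.35 without Igfbp2-treated replicate 3 (edgeR adjusted p = 0.166). *Kcnh2*, an ether-a-go-go-related channel, rose with Igfbp2 by 0.79 ± 0.18 (edgeR adjusted p = 0.0084), from 5.75 to 7.61 CPM to 8.05 to 13.8 CPM, and was at 0.093 and not called with limma on log2(TPM + 1) (limma adjusted p = 0.68).

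Calcium- and sodium-activated channels changed by subunit. *Kcnma1*, the pore of the large-conductance BK channel, was at 5.78, 6.21, 5.79 and 5.68 CPM in WT and at 16.2, 18.2, 17.2 and 23.8 CPM in vehicle-treated *Ncf1*-/- NSCs. With no overlap it rose by 1.69 ± 0.15 (edgeR adjusted p = 1.45e-06), and with Igfbp2 it differed by −0.07 ± 0.14 (edgeR adjusted p = 0.74). *Kcnmb4*, the neuronal BK beta subunit, did not pass between genotypes (0.08 ± 0.21) and fell with Igfbp2 by 0.77 ± 0.21 (edgeR adjusted p = 0.020), from 15.6 to 19.5 CPM to 8.90 to 12.2 CPM, a call lost without vehicle-treated replicate 1 (edgeR adjusted p = 0.056). Of the 3324 exonic bases of *Kcnmb4*, 1048 overlap antisense genes.

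The small-conductance channel gene *Kcnn3* was at 23.6, 27.5, 14.4 and 26.0 CPM in WT, at 7.54, 6.92, 6.23 and 8.66 CPM in vehicle-treated and at 10.02, 15.0, 12.8 and 13.2 CPM in Igfbp2-treated *Ncf1*-/- NSCs. Vehicle-treated cultures were below all others, and 1 treated culture reached above the lowest WT culture. The log2 fold changes were −1.63 ± 0.19 (edgeR adjusted p = 1.21e-05) and 0.79 ± 0.19 (edgeR adjusted p = 0.012), and −0.84 ± 0.19 between Igfbp2-treated *Ncf1*-/- and WT NSCs (edgeR adjusted p = 0.0017). *Kcnn1* went the same ways, −0.96 ± 0.21 (edgeR adjusted p = 0.0017) and 0.81 ± 0.21 (edgeR adjusted p = 0.017), the latter not called with library totals (edgeR adjusted p = 0.064) or without vehicle-treated replicate 2 (edgeR adjusted p = 0.055). The rise of *Kcnn3* with Igfbp2 was not called without vehicle-treated replicate 3 (edgeR adjusted p = 0.055) or Igfbp2-treated replicate 2 (edgeR adjusted p = 0.056). *Kcnn4* of the same family went from 0.12 ± 0.08 to 0.95 ± 0.13 CPM between genotypes (2.77 ± 0.41, edgeR adjusted p = 7.35e-05). The sodium-activated *Kcnt1* fell with Igfbp2 by 1.18 ± 0.29 (edgeR adjusted p = 0.011), from 6.93 ± 1.32 to 3.04 ± 0.36 CPM.

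Of the 8 tested calcium channel pores, 5 fell and 0 rose without *Ncf1*, 62.5% called against 57.2% of all genes tested. With Igfbp2 3 rose and 0 fell, against 14.2% of all genes tested called higher, and limma on log2(TPM + 1) called 0 of these 3. *Cacna1c*, an L-type channel, was at 23.3, 25.4, 11.7 and 20.7 CPM in WT, at 6.93, 8.85, 7.95 and 11.3 CPM in vehicle-treated and at 15.7, 21.5, 22.1 and 20.0 CPM in Igfbp2-treated *Ncf1*-/- NSCs. The vehicle-treated cultures lay below all others, and the treated cultures lay within the WT range. The log2 fold changes were −1.20 ± 0.22 against WT (edgeR adjusted p = 4.69e-04), 1.17 ± 0.22 with Igfbp2 (edgeR adjusted p = 0.0036) and −0.02 ± 0.22 between Igfbp2-treated *Ncf1*-/- and WT NSCs (edgeR adjusted p = 0.93). With limma on log2(TPM + 1) the rise was 0.26 (limma adjusted p = 0.18).

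*Cacna1d*, also of the L-type, was at 5.14, 5.78, 5.22 and 5.57 CPM in WT and at 1.66, 2.47, 1.46 and 2.02 CPM in vehicle-treated *Ncf1*-/- NSCs. It fell by 1.51 ± 0.20 (edgeR adjusted p = 3.29e-05) with no overlap, and with Igfbp2 it differed by −0.18 ± 0.22 (edgeR adjusted p = 0.57). *Cacna1e*, of the R-type, fell by 2.02 ± 0.35 (edgeR adjusted p = 2.46e-04). The P/Q-type gene *Cacna1a*, with means of 26.2 ± 4.69 CPM in WT, 23.3 ± 2.18 CPM in vehicle-treated and 24.0 ± 3.12 CPM in Igfbp2-treated cultures (SD, n = 4), did not pass in any comparison.

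Channels of the T-type open at low voltage, and 3 of their genes were tested. *Cacna1i* had a mean level of 0.046 TPM over the 12 libraries, against 8.26 TPM for *Cacna1h* and 2.46 TPM for *Cacna1g*. At 1 to 22 counts per library, it was at 0.55, 1.19, 0.14 and 0.50 CPM in WT, 0.087, 0.048, 0.22 and 0.11 CPM in vehicle-treated and 0.44, 0.72, 0.48 and 0.69 CPM in Igfbp2-treated *Ncf1*-/- NSCs. It was called lower against WT (−2.19 ± 0.62, edgeR adjusted p = 0.0084) and higher with Igfbp2 (2.25 ± 0.62, edgeR adjusted p = 0.021), and the rise was lost on leaving out any 1 of 4 libraries (vehicle-treated replicates 1 and 2 and Igfbp2-treated replicates 2 and 4, edgeR adjusted p of 0.056 to 0.061). With limma on log2(TPM + 1), where it lies near 0 TPM, the values were −0.0021 and −0.015 and neither was called. *Cacna1h* was at 33.1, 34.4, 43.2 and 103.8 CPM in WT, at 60.4, 66.4, 67.3 and 75.9 CPM in vehicle-treated and at 119.6, 142.7, 152.7 and 147.3 CPM in Igfbp2-treated *Ncf1*-/- NSCs. Treated cultures were above all others, and WT replicate 4 was far above the other WT cultures. The rise with Igfbp2 was 1.06 ± 0.29 (edgeR adjusted p = 0.021), with library totals it was 0.79 (edgeR adjusted p = 0.048), and it was lost on leaving out any of 6 libraries singly (the 3 vehicle-treated replicates 1 to 3 and the 3 Igfbp2-treated replicates 2 to 4, edgeR adjusted p of 0.051 to 0.062). Between genotypes it did not pass (0.34 ± 0.29), and without WT replicate 4 it did (edgeR adjusted p = 9.36e-05). *Cacna1g* was at 5.96, 5.18, 16.9 and 19.3 CPM in WT, at 19.8, 21.3, 20.8 and 20.7 CPM in vehicle-treated and at 29.8, 38.8, 37.6 and 34.4 CPM in Igfbp2-treated *Ncf1*-/- NSCs. The groups did not overlap, with the upper WT cultures close to the vehicle-treated ones. Between genotypes the log2 fold change was 0.80 ± 0.33 (edgeR adjusted p = 0.051). It passed with library totals (edgeR adjusted p = 0.024), DESeq2 (adjusted p = 0.024) and limma on log2(TPM + 1) (adjusted p = 0.012). In the fit of these 2 groups alone it did not (0.83, edgeR adjusted p = 0.092). Between treatments it was 0.77 ± 0.32 (edgeR adjusted p = 0.095). It passed in fits of the *Ncf1*-/- libraries alone, without a block (0.72, edgeR adjusted p = 1.19e-04) and with the replicate block (0.71, edgeR adjusted p = 5.36e-04). This difference was not called with library totals (0.50, edgeR adjusted p = 0.25), DESeq2 (0.75, DESeq2 adjusted p = 0.063) or limma on log2(TPM + 1) (0.074, limma adjusted p = 0.80).

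**Figure D4:**
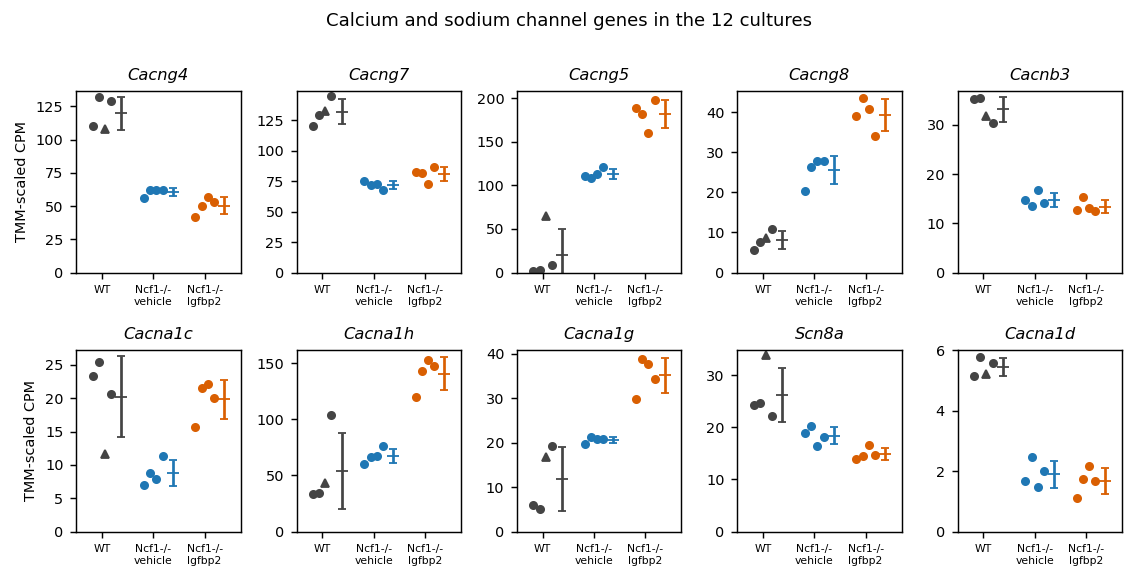
TMM-scaled CPM of 10 calcium and sodium channel genes, 1 point per culture with the mean and SD of the 4 cultures beside them, WT replicate 3 drawn as a triangle. Without *Ncf1*, *Cacng4* and *Cacng7* lie lower and *Cacng5* and *Cacng8* higher, and WT replicate 3 holds 65.1 CPM of *Cacng5* against 2.09 to 8.96 CPM in the other WT cultures.

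Calcium channel beta subunits carry the pores to the membrane. *Cacnb3* was at 35.2, 35.5, 31.8 and 30.3 CPM in WT, at 14.6, 13.5, 16.7 and 14.1 CPM in vehicle-treated and at 12.6, 15.4, 13.2 and 12.4 CPM in Igfbp2-treated *Ncf1*-/- NSCs. The WT cultures stood above all others. It fell by 1.17 ± 0.10 (edgeR adjusted p = 6.83e-07), and with Igfbp2 the difference was −0.14 ± 0.10 (edgeR adjusted p = 0.32). *Cacnb4* fell by 1.24 ± 0.24 (edgeR adjusted p = 5.79e-04), which was −0.28 and not called with limma on log2(TPM + 1) (limma adjusted p = 0.35). *Cacnb1* fell by 0.55 ± 0.18 (edgeR adjusted p = 0.020), and this was lost without WT replicate 3 (edgeR adjusted p = 0.064). Of the 4 beta subunits, 0 passed between treatments with edgeR on TMM-scaled counts or with DESeq2, against 25.0% of all genes tested, and 0 had an unadjusted p under 0.05 in that edgeR fit. *Cacnb3* was called lower with Igfbp2 on library totals (−0.41, edgeR adjusted p = 0.0082) and with limma on log2(TPM + 1) (−0.47, limma adjusted p = 0.023). *Cacna2d2*, an alpha2delta subunit, fell by 0.59 ± 0.11 against WT (edgeR adjusted p = 5.86e-04), which was −0.27 and not called with limma on log2(TPM + 1) (limma adjusted p = 0.17). It rose with Igfbp2 by 0.46 ± 0.11 (edgeR adjusted p = 0.013), which turned to −0.080 with limma on log2(TPM + 1) and was not called without Igfbp2-treated replicate 2 (edgeR adjusted p = 0.054).

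The gamma subunits that were tested are known mainly as partners of AMPA-type glutamate receptors. They lie in clusters, and neighbours changed in opposite directions. On chromosome 11, *Cacng4* was at 110.1, 131.9, 107.7 and 128.9 CPM in WT and at 56.1, 62.1, 61.8 and 62.0 CPM in vehicle-treated *Ncf1*-/- NSCs, without overlap. It fell by 0.98 ± 0.10 (edgeR adjusted p = 4.09e-06). *Cacng5*, whose gene ends 80047 bases from that of *Cacng4*, was at 2.09, 2.48, 65.1 and 8.96 CPM in WT, at 110.5, 108.5, 112.4 and 121 CPM in vehicle-treated and at 188, 181.9, 159.9 and 197.6 CPM in Igfbp2-treated *Ncf1*-/- NSCs. All WT cultures were below all *Ncf1*-/- cultures, and WT replicate 3 stood between. The log2 fold change against WT was 2.49 ± 0.78 (edgeR adjusted p = 0.015), and 4.67 without WT replicate 3 (edgeR adjusted p = 1.98e-07). Between treatments it did not overlap but did not pass (0.69 ± 0.74, edgeR adjusted p = 0.52). In fits of the *Ncf1*-/- libraries alone it did, without a block (0.64, edgeR adjusted p = 8.06e-05) and with the replicate block (0.63, edgeR adjusted p = 4.81e-04). With library totals (0.41, edgeR adjusted p = 0.69) and limma on log2(TPM + 1) (0.20, limma adjusted p = 0.79) it was not called.

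On chromosome 7, *Cacng7* was at 120.3, 129.7, 132.7 and 145.4 CPM in WT and at 75.1, 71.8, 72.3 and 67.5 CPM in vehicle-treated *Ncf1*-/- NSCs. *Cacng8*, 22461 bases away, was at 5.50, 7.72, 8.63 and 10.8 CPM in WT and at 20.3, 26.3, 27.7 and 27.9 CPM in vehicle-treated *Ncf1*-/- NSCs. Neither gene's groups overlapped, one lower and the other higher. *Cacng7* fell by 0.88 ± 0.08 (edgeR adjusted p = 1.59e-06) and *Cacng8* rose by 1.65 ± 0.17 (edgeR adjusted p = 4.22e-06). The opposite directions held with library totals, DESeq2 and limma on log2(TPM + 1). With Igfbp2 *Cacng8* was at 34.03 to 43.5 CPM (0.62 ± 0.16, edgeR adjusted p = 0.016), which was 0.35 and not called with library totals, nor without vehicle-treated replicate 1 (edgeR adjusted p = 0.053) or Igfbp2-treated replicate 2 (edgeR adjusted p = 0.057).

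Sodium channels were few and low. *Scn8a*, a subunit of the axon initial segment and nodes, was at 24.2, 24.7, 33.9 and 22.2 CPM in WT and at 18.9, 20.3, 16.3 and 18.1 CPM in vehicle-treated *Ncf1*-/- NSCs. It fell by 0.51 ± 0.12 (edgeR adjusted p = 0.0033), without overlap, but was not called with library totals. *Scn3a*, known from the embryonic brain, fell by 1.39 ± 0.24 (edgeR adjusted p = 3.02e-04) from 2.69 ± 0.34 to 1.02 ± 0.16 CPM. *Scn1a* did not pass between genotypes (0.45 ± 0.21), and fell with Igfbp2 by 1.20 ± 0.23 (edgeR adjusted p = 0.0038), from 1.18, 1.55, 1.37 and 1.34 CPM to 0.61, 0.42, 0.62 and 0.69 CPM. *Scn2a1*, outside the rule, averaged 6.16 ± 1.43, 5.17 ± 0.63 and 4.88 ± 0.41 CPM (SD, n = 4) and did not pass in any comparison.

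The beta subunits *Scn3b* and *Scn2b* did not pass between genotypes.

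**Figure D5:**
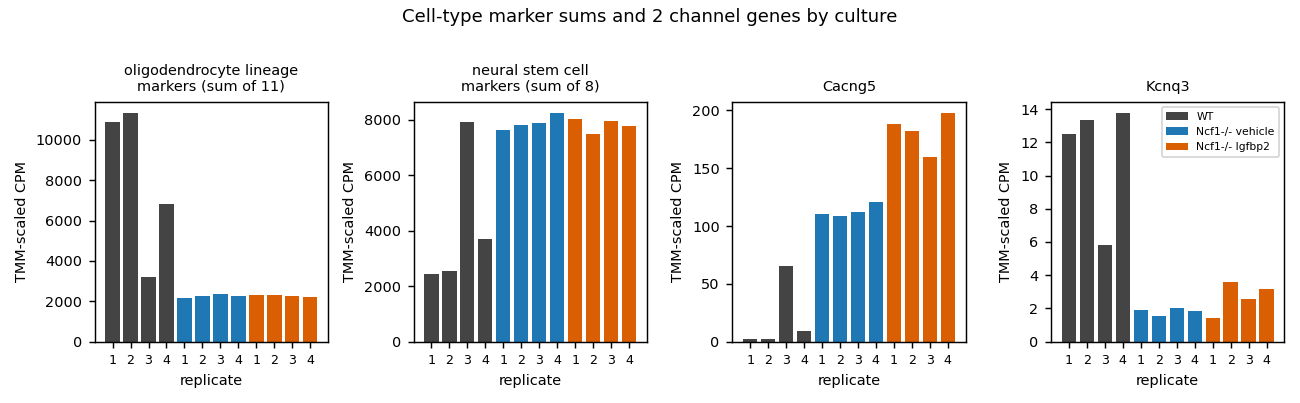
TMM-scaled CPM in each culture of the summed oligodendrocyte lineage markers, the summed neural stem cell markers, *Cacng5* and *Kcnq3*. WT replicate 3 has the lowest oligodendrocyte sum of the WT cultures (3216 CPM), the highest stem cell sum (7926 CPM), the highest *Cacng5* (65.1 CPM) and the lowest *Kcnq3* (5.79 CPM).

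Among the 27 channel genes that fell without *Ncf1*, WT replicate 3 was the lowest WT culture for 16, *Kcnq3*, *Kcnd2* and *Cacna1c* among them, the highest for 3, *Scn8a*, *Cacna1e* and *Cacnb1*, and between the others for 8. For the 22 that rose, WT replicate 3 was the highest WT culture for 10, the lowest for 1 and between the others for 11. These ranks were not counted over all genes called, so they are no result about channel genes in particular. The part of cell composition in any of these differences was not tested. Without WT replicate 3, 27 channel genes were higher and 28 lower in *Ncf1*-/- NSCs, and without WT replicate 4, 25 were higher and 28 lower.

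Other genes of channel complexes and ion transport were taken from a list of 39, of which 30 were tested. In the genotype comparison 5 of them rose and 19 fell without *Ncf1* (80.0% called, against 57.2% of all genes tested), with a median log2 fold change of −0.85. Those that fell included *Nalcn*, the sodium leak channel (−2.10 ± 0.16, edgeR adjusted p = 4.75e-07), its partner *Unc80* (−1.36 ± 0.17, edgeR adjusted p = 1.54e-05), and *Dpp10*, a partner of Kcnd channels (−1.07 ± 0.14, edgeR adjusted p = 3.60e-05). *Fgf13*, which binds sodium channels, differed by −1.75 ± 0.21 (edgeR adjusted p = 1.29e-05), and *Ank3*, which anchors them at the axon initial segment, fell by 1.80 ± 0.31 (edgeR adjusted p = 2.75e-04). Among sodium pump beta subunits *Atp1b2* fell and *Atp1b3* rose (0.68 ± 0.08, edgeR adjusted p = 1.32e-05). *Rest*, a repressor of neuronal genes that include sodium channels, fell by 0.44 ± 0.11 (edgeR adjusted p = 0.0037).

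Between treatments 7 of the 30 were higher and 3 lower (33.3% called, against 25.0% of all genes tested). *Nalcn* (−0.63 ± 0.17, edgeR adjusted p = 0.020), *Unc80* (−1.01 ± 0.18, edgeR adjusted p = 0.0028) and *Dpp10* (−0.77 ± 0.15, edgeR adjusted p = 0.0044) fell with Igfbp2, while *Ank3* rose by 1.05 ± 0.31 (edgeR adjusted p = 0.027). In the *Ncf1*-/- libraries alone 17 were called without a block (13 higher) and 19 with the replicate block (15 higher), and with library totals 0 higher and 5 lower. Between Igfbp2-treated *Ncf1*-/- and WT NSCs 8 were higher and 16 lower (80.0% called, against 62.4% of all genes tested).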

How the data were processed

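RNA of 12 NSC cultures, depleted of rRNA, was sequenced, with 1 library per culture and 4 per group. Per the labels and the study's methods, Bowtie2 mapping and RSEM quantification on GRCm38 were run by the authors. They deposited an expected count (RSEM's estimated count, not normalized) and a TPM per gene and library. Versions and strand setting are not given in the sources used here. FPKM values, also deposited by the authors, were not used, and the merged table, whose values are a score made by the authors, served only for gene symbols. Of the expected counts 15.9% were not whole, and all were rounded.

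Genes passing filterByExpr (15706, with 99.9% of counts) were scaled with TMM factors and fitted with edgeR 4.0.16 (R 4.3.3), with 1 mean per group over 12 libraries and no covariate. Tests were two-sided quasi-likelihood tests with Benjamini-Hochberg adjustment over all genes tested, called at an adjusted p under 0.05. The median SE of a log2 fold change was 0.14 in each comparison. The fit was tested on simulated data. A group with at most 3 counts in each library was taken as at the floor. The closest replicates had a chi-square of 4.40 per degree of freedom, so no library was counted as a repeat of another.

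The channel genes and all lists were chosen with earlier results of these data known, so their counts are descriptions. Named genes are, per comparison, the 8 largest rises and 8 largest falls among genes called without overlap whose mean reached 1 CPM, the most abundant gene of each class, and a list of channels of glia, precursors and young neurons. *Cacna1i*, *Kcnd1*, *Kcnj3*, *Kcnk9*, *Kcnn4*, *Kcng4* and *Kcnmb1* were named after their values were seen. Some genes are counted but not reported here by name. Alternatives were DESeq2 1.42.0, library totals, omission of the filter, a stricter filter (mean over libraries not below 5 CPM), a fit of the 2 compared groups alone, a replicate block, the study's own test on TPM, limma 3.58.1 on log2(TPM + 1) and log2(TPM + 0.1), and each library left out in turn.

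Per the study's methods each *Ncf1*-/- pup gave a vehicle-treated and an Igfbp2-treated culture, so the culture numbers were used as a replicate block in an alternative fit. Deviations from the group means correlated across genes between −0.07 and 0.03 for the same number and between −0.25 and 0.26 for different numbers. Y-linked genes were high in every vehicle-treated and low in every Igfbp2-treated culture, a difference that cultures of the same pup would not show, and the correlations show no pairing either. P-values measure the spread between cultures.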

Additional observations from a re-analysis of the deposited data

Results flagged for a closer look

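Of 164 sets of 4 cultures examined for the channel genes named by the rule and reported here, 10 held a culture whose gap to the nearest other culture exceeded Dixon's 95% critical share of the range, and chance alone gives about 1 in 20. In WT replicate 3 these were *Cacng5*, at 65.11 CPM against 2.092 to 8.964 CPM in the other WT cultures, *Kcnq3*, at 5.794 CPM against 12.51 to 13.75 CPM, and *Scn3b*, at 15.26 CPM against 9.91 to 10.52 CPM. This culture also had the highest sum of neural stem cell markers and the lowest of oligodendrocyte lineage markers in WT, and the part of either was not tested. In WT replicate 4, *Cacna1h* stood at 103.8 CPM against 33.07 to 43.2 CPM and *Kcnj4* at 2.338 CPM against 1.183 to 1.295 CPM, and this was the WT culture with low Y-linked expression.

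Among vehicle-treated *Ncf1*-/- cultures, replicate 1 was lowest in *Cacng4*, at 56.11 CPM against 61.81 to 62.12 CPM, and in *Scn3a*, at 0.7841 CPM against 1.082 to 1.113 CPM. Replicate 2 was highest in *Scn2b*, at 1.5 CPM against 1.231 to 1.263 CPM. Replicate 3 was highest in *Kcnj12*, at 0.9272 CPM against 0.387 to 0.4477 CPM. Among Igfbp2-treated cultures *Kcnip1* was highest in replicate 1, at 35.77 CPM against 26.49 to 28.07 CPM.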

How the results depend on the processing

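For the channel genes named by the rule, settings other than leaving out a library gave 1173 values of the same direction and call, 120 that lost and 59 that gained a call, and 8 of opposite sign. The 8 were, with Igfbp2 against vehicle, *Cacna2d2* (−0.079 with the study's test, −0.080 and −0.14 with limma on log2(TPM + 1) and log2(TPM + 0.1)) and, against WT, *Kcnd3* (−0.066, −0.077 and −0.084) and *Kcnh2* (−0.023 and −0.066, limma only). The cause was not tested.

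Between genotypes, the filter at 5 CPM, which tests fewer genes, left 25 channel genes called (11 higher, 14 lower) and 3 partner genes higher, and the study's test on TPM called 17 channel genes lower and 14 partners (2 higher, 12 lower). Leaving out single libraries gave 47 to 55 channel genes called, 21 to 27 higher and 26 to 28 lower.

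For Igfbp2 against vehicle, the filter gave 16 channel genes (13 higher) and 4 partners higher, the study's test 5 (4 higher, 1 lower) and 1 partner (0 higher, 1 lower), and library totals 12 higher and 13 lower with 5 partners (0 higher, 5 lower). Limma gave 15 (3 higher, 12 lower) and 6 partners (1 higher, 5 lower) with + 1, and 16 (3 higher, 13 lower) with 0 partners higher and 7 lower with + 0.1. The fit of the 2 groups alone gave 25 channel genes higher and 9 lower with 17 partners (13 higher), and the replicate block, which follows the pairing in the study's methods, 25 higher and 9 lower with 19 partners (15 higher). Leaving out single libraries gave 18 to 32 channel genes, 13 (without Igfbp2-treated replicate 2) to 25 higher and 3 to 7 (without WT replicate 3) lower. For partners the ranges were 5 (without vehicle-treated replicate 1) to 16 (without WT replicate 3) called and 3 to 12 higher, from the same libraries.

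For Igfbp2-treated *Ncf1*-/- against WT, the filter gave 29 channel genes (14 higher, 15 lower) and 14 partners (4 higher, 10 lower), and the study's test 29 (11 higher, 18 lower) with 2 partners higher. Limma gave 4 and 3 partners higher. Leaving out single libraries gave 55 to 61 channel genes, and 5 (without Igfbp2-treated replicate 3) to 8 partners higher. Genes at a few counts per library, such as *Kcng4* and *Kcnmb1*, are limited by depth. Shares of all genes called under these alternative settings were not counted, so the counts of channel genes and partners have no background beside them.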
